A study of Mus musculus with 16 samples.

Results

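The genes described here are 10 cadherins, *Cdh2*, *Cdh4*, *Cdh6*, *Cdh7*, *Cdh8*, *Cdh9*, *Cdh10*, *Cdh11*, *Cdh12* and *Cdh13*, taken by name from the 49671 genes of 2 count tables of single cells from mouse dorsal root ganglia (DRG). All 10 were matched by Ensembl ID to GENCODE M21 (GRCm38). The libraries were made with CEL-Seq2, a plate-based method that reads the 3′ end of each transcript and counts unique molecular identifiers (UMIs), at embryonic day (e) 15.5 (10 libraries, 960 wells) and at postnatal day 1 (p1; 6 libraries, 576 wells). At e15.5 cells carried tdTomato under the parvalbumin promoter from a BAC transgene (PvtdTom) and were isolated by fluorescence-activated cell sorting. At p1 the study used PvCre; Ai14 mice and Trpv1Cre; PvFlp; Ai65 mice, the latter with either of 2 Trpv1Cre lines, so that tdTomato marks cells with a history of *Pv* alone or of both *Trpv1* and *Pv*, and its methods state manual picking at this age where the labels state sorting. The study took cells from thoracic and lumbar DRG at both ages. The labels give the age of a library but not its mouse line or segmental level, nor whether libraries came from separate animals. The p-values between ages therefore measure the spread between libraries. Those of the other comparisons, with library as a block, measure how differences within a library vary from library to library. Either spread may be technical. Age, mouse line and way of isolation cannot be told apart in comparisons of e15.5 with p1.

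Cadherins are calcium-dependent adhesion proteins that bind like molecules on neighboring cells. *Cdh2* (N-cadherin) and *Cdh4* (R-cadherin) encode type I classical cadherins, and *Cdh6* to *Cdh12* encode type II cadherins, which can also bind other type II members. Both kinds hold catenins on their cytoplasmic side, which link them to actin. *Cdh13* (T-cadherin) encodes a member without a cytoplasmic domain that is held in the membrane by a lipid anchor. Combinations of type II cadherins are known to mark motor neuron pools in the spinal cord, the synaptic partners of proprioceptive sensory neurons.

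In GENCODE M21, 4 members lie on chromosome 15: *Cdh6* (ENSMUSG00000039385, 13028701 to 13173675), *Cdh9* (ENSMUSG00000025370, 16728756 to 16857094), *Cdh10* (ENSMUSG00000022321, 18818947 to 19014236) and *Cdh12* (ENSMUSG00000040452, 20449265 to 21589533). On chromosome 8 lie 3 members: *Cdh8* (ENSMUSG00000036510, 99024471 to 99416471), *Cdh11* (ENSMUSG00000031673, 102632095 to 102785642) and *Cdh13* (ENSMUSG00000031841, 118283733 to 119324921). *Cdh7* (ENSMUSG00000026312) lies on chromosome 1 at 109982431 to 110140157 and *Cdh4* (ENSMUSG00000000305) on chromosome 2 at 179442431 to 179899373. *Cdh8* and *Cdh10* correlated over e15.5 proprioceptor-like wells (median r 0.42 within libraries, 0.14 at p1), and *Cdh6* was nearly absent from those wells. The 3 promoters printed next belong to *Cdh8*, *Cdh10* and *Cdh6*, the last a chromosome 15 neighbor of *Cdh10*. Each is the 250 bases before the RefSeq start site on GRCm38.p6, 5′ to 3′ along the gene: chr8:99416472-99416721 (minus strand), chr15:18820079-18820328 (plus strand) and chr15:13173676-13173925 (minus strand). The first and the third border the gene's annotated start and the second lies inside the annotated *Cdh10* gene, and none overlaps an annotated exon of these cadherins. Capitals mark TGTGGT, the core of the motif bound by RUNX factors, of which RUNX3 is a proprioceptor marker.
*Cdh8*: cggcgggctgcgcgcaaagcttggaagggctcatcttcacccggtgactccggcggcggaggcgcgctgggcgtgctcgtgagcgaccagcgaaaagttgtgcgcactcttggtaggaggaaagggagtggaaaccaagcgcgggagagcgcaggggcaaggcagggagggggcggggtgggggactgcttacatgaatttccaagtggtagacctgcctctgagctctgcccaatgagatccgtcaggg
*Cdh10*: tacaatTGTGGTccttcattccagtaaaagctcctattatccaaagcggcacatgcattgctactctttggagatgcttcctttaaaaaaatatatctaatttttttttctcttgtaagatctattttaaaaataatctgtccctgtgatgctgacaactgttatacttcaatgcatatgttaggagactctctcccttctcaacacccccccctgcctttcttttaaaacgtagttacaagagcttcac
*Cdh6*: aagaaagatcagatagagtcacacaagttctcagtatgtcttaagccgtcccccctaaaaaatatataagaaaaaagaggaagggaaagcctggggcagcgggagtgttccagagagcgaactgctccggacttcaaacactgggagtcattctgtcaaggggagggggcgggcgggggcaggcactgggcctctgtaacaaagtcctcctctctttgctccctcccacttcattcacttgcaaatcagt
Searched on both strands, TGTGGT was found once in the *Cdh10* window and not in the *Cdh8* and *Cdh6* windows. CCGGAAGT, an ETS factor motif, and CAGCTG, an E-box, were found in none of the 3, and no motif of the 3 contains another. Of 32851 RefSeq promoter windows of this length, 14.0% hold TGTGGT, 2.88% CCGGAAGT and 13% CAGCTG. A match is a description of the letters and not of binding. The table used holds promoters of 6 members (*Cdh6*, *Cdh7*, *Cdh8*, *Cdh9*, *Cdh10* and *Cdh12*).

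Wells with at least 10000 UMIs were used, 871 of 960 at e15.5 and 369 of 576 at p1. A library held 3701900 to 9299431 UMIs at e15.5 and 386517 to 8814472 at p1. Wells were put into classes by levels of marker genes, none of them a cadherin. A proprioceptor-like well passed 300 UMIs per 1000000 (CPM) of *Avil* and *Isl1* together, 100 CPM of at least 3 of *Pvalb*, *Runx3*, *Etv1* and *Ntrk3*, and stayed under 1000 CPM of 3 collagen genes and 200 CPM of 4 glial genes. This gave 269 wells at e15.5 (6 to 63 per library) and 249 at p1 (5 to 67). Proprioceptor-like wells over the glial limit were kept apart (45 and 42 wells). Other sensory neuron-like wells, with *Runx3* under 100 CPM, numbered 34 at e15.5 and 6 at p1, and connective tissue-like wells, over the collagen limit without neuronal markers, 407 and 4. In the proprioceptor-like wells the 4 proprioceptor markers summed to 4305 to 4884 CPM per library at e15.5 and 3309 to 5151 at p1. In other sensory neuron-like wells at e15.5 they summed to 217 to 370. This gap follows from the limits, which used the same markers, and is no check of the classes. Within 1.5-fold of the neuronal limit lay 16 of 871 wells at e15.5 and 105 of 369 at p1. One p1 library, number 3, had only 5 proprioceptor-like wells with a median of 12244 UMIs, and p1 results were also computed without it. The 96 well numbers are shared by all 16 libraries as plate positions, and no 2 wells held identical counts. Wells with 2 cells were not looked for.

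*Cdh12* was the most abundant of the 10 genes in proprioceptor-like wells at e15.5, followed by *Cdh13* and *Cdh2*. *Cdh8*, *Cdh7*, *Cdh10* and *Cdh4* came next, *Cdh11* was low, and *Cdh9* and *Cdh6* were near 0. Levels are UMIs of a gene per 1000000 UMIs of all proprioceptor-like wells of a library. Since 1 UMI stands for 1 captured 3′ end, they were not scaled by transcript length.

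Among the type I members at e15.5, *Cdh2* (ENSMUSG00000024304, chromosome 18, 16588877 to 16809246) had 91.2 CPM in its lowest library, a median of 112 and 134 in the highest (mean 111 ± 11.8, SD, n = 10). *Cdh4* was far less even, from 3.09 CPM in library 6 to 67.5 in library 4, with a median of 25.3. *Cdh2* thus differed little between libraries, while *Cdh4* had 1 library far above the others, in which it was counted in 7 wells.

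Among the type II members at e15.5, *Cdh12* ran from 246 to 370 CPM (median 287), *Cdh8* from 47.5 to 95.8 (median 64.4) and *Cdh7* from 27.5 to 104 (median 52.0). *Cdh10* ran from 18.5 to 57.3 CPM (median 31.8) and *Cdh11* from 5.41 to 25.1 (median 9.68). *Cdh9* ran from 0 to 10.1 CPM (median 1.89, 66 UMIs in 269 wells) and *Cdh6* from 0 to 1.76 (median 0.734, 22 UMIs). Of the type II genes on chromosome 15, *Cdh12* thus stood at the top of the order, *Cdh10* in the middle and *Cdh9* and *Cdh6* at the bottom. *Cdh13* ran from 129 to 264 CPM with a median of 188. In the order *Cdh12*, *Cdh13*, *Cdh2*, *Cdh8*, *Cdh7*, *Cdh10*, *Cdh4*, *Cdh11*, *Cdh9*, *Cdh6*, the library ranges of every pair of neighbors overlapped.

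**Figure D1:**
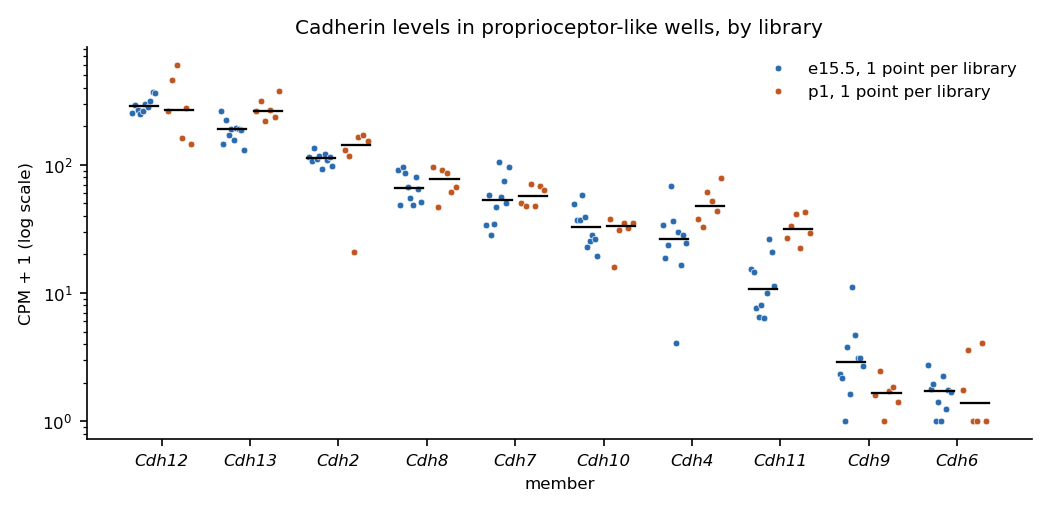
Level of each cadherin (CPM + 1, log axis) in proprioceptor-like wells, with 1 point per library (10 at e15.5 in blue, 6 at p1 in orange) and a black line at the median. *Cdh12* is the highest gene at e15.5 (median 287 CPM), *Cdh9* and *Cdh6* lie near 0, and the p1 point of *Cdh2* at 20.01 CPM is the library with 5 wells.

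*Cdh7* and *Cdh10* also differed between e15.5 libraries, and their values stand here beside those of *Hoxc10*, a gene of lumbar identity. In libraries 1 to 5 *Cdh10* stood at 48.8, 36.4, 36.0, 57.3 and 38.4 CPM, and in libraries 6 to 10 at 21.7, 24.3, 27.5, 25.3 and 18.5. *Cdh7* stood at 33.0, 56.6, 27.5, 33.3 and 45.5 CPM in libraries 1 to 5 and at 104, 54.8, 73.1, 49.2 and 95.6 in libraries 6 to 10. *Hoxc10* had 54.6, 1.98, 37.9, 3.70 and 16.6 CPM in the first 5 libraries and 138, 126, 133, 112 and 155 in the others. The study states equal numbers of e15.5 cells from thoracic and lumbar DRG, and reports that *Hoxc10* closely followed anatomical origin. At p1 *Cdh10* stood at 36.9, 14.97, 30.0, 34.4, 30.9 and 34.3 CPM in libraries 1 to 6. *Cdh7* stood at 49.4, 46.4, 70.0, 46.5, 67.7 and 62.8 there, and *Hoxc10* at 4.97, 51.7, 40.0, 6.44, 61.0 and 77.9. The choice of these cadherins was not set beforehand, and the share of all genes that differ between libraries in this way was not counted. The labels do not give the level of a library, and the relation of either cadherin to *Hoxc10* was not tested across libraries.

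Connective tissue-like wells differed from proprioceptor-like wells most in *Cdh11*, which is known from mesenchymal cells. At e15.5 *Cdh11* had 418 CPM in its lowest library, a median of 585 and 728 in its highest over 9 libraries of connective tissue-like wells, so that no library came near the proprioceptor-like range of 5.41 to 25.1. Its log2 fold change (connective tissue-like minus proprioceptor-like) was 5.62 ± 0.27 (SE; adjusted p = 4.68e-14 edgeR quasi-likelihood, Benjamini-Hochberg over all tested genes, library as a block), a 49.1-fold difference. In the same test 5 members were lower: *Cdh7* by 18.9-fold (log2 -4.24 ± 0.27, adjusted p = 5.13e-12), *Cdh12* by 18.8-fold (-4.23 ± 0.20, 4.26e-14), *Cdh13* by 11.7-fold (-3.55 ± 0.41, 8.91e-08), *Cdh10* by 10.8-fold (-3.43 ± 0.37, 2.55e-08) and *Cdh8* by 10.1-fold (-3.33 ± 0.34, 1.38e-08). Called genes were common in this comparison, at 79.4% of 13640 tested genes, 42.9% higher and 36.4% lower. The 8 members that passed the filter on low counts had a median log2 fold change of -3.38, against 0.13 over all tested genes. *Cdh6* and *Cdh9* did not pass that filter in the main fit of any comparison.

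Both type I genes were found in connective tissue-like wells at levels that overlapped those of proprioceptor-like wells. *Cdh2* ran from 0 (in the library with 5 such wells) to 132 CPM with a median of 91.4, and its log2 fold change of -0.39 ± 0.19 did not pass the threshold (adjusted p = 0.0653). The *Cdh2* difference did pass with DESeq2 (-0.50, adjusted p = 0.0164) and without any 1 of libraries 1, 6, 7, 8, 9 and 10 (-0.58 to -0.46, adjusted p = 0.0129 to 0.0316). *Cdh4* ran from 4.28 to 70.6 CPM (median 25.1; log2 0.06 ± 0.45, adjusted p = 0.913). *Cdh13* in connective tissue-like wells had a median of 12.3 CPM and a highest value of 126, from 15 UMIs in the 5 wells of library 10.

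**Figure D2:**
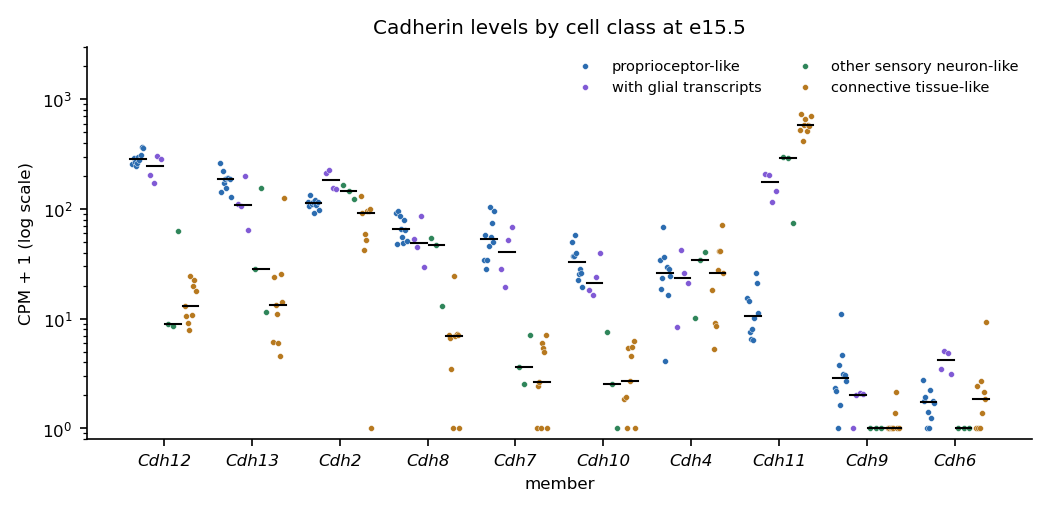
Level of each cadherin (CPM + 1, log axis) in 4 cell classes at e15.5, with 1 point per library holding at least 5 wells of the class and a black line at the median. *Cdh12*, *Cdh13*, *Cdh7* and *Cdh10* are high in proprioceptor-like wells and low in connective tissue-like wells, *Cdh11* is the reverse (median 585 against 9.68 CPM), and *Cdh2* and *Cdh4* overlap between the classes.

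Other sensory neuron-like wells, which held more nociceptor and mechanoreceptor transcripts (425 to 1589 and 741 to 2800 CPM for the 5 markers of each, against 37.0 to 243 and 127 to 273 in proprioceptor-like wells), had type I genes at overlapping levels, less *Cdh7*, *Cdh10* and *Cdh12*, and more *Cdh11*. *Cdh12* had 7.89, 7.59 and 62.2 CPM in libraries 1, 3 and 9, the libraries with at least 5 such wells, all below the lowest proprioceptor-like library. It was lower by 13.2-fold (log2 -3.72 ± 0.33, adjusted p = 1.59e-07). *Cdh7*, with 2.63, 1.52 and 6.07 CPM, was lower by 11.8-fold (-3.56 ± 0.51, adjusted p = 4.83e-05), and *Cdh10*, with 6.57, 1.52 and 0 CPM, by 11.6-fold (-3.53 ± 0.71, adjusted p = 0.00146). *Cdh11* had 298, 290 and 74.4 CPM and was higher by 16.9-fold (4.08 ± 0.38, adjusted p = 2.57e-07). Here 12.8% of the 13640 genes were called, 5.97% higher and 6.85% lower, and of the members 1 was higher and 4 were lower.

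The fourth lower member, *Cdh13*, was uneven, with 27.6, 155 and 10.6 CPM in the 3 libraries (log2 -1.94 ± 0.59, adjusted p = 0.0337), and it lost the call without library 1 (adjusted p = 0.225), 5 (0.0554) or 9 (0.146). The call was also lost with DESeq2 (0.106), the minimum of wells doubled (0.0531), and the limits of the classes halved (0.150) or doubled (0.0686). *Cdh8*, at 53.9, 45.6 and 12.1 CPM, had a log2 fold change of -1.21 ± 0.46 that did not pass (adjusted p = 0.0901). *Cdh2* stood at 166, 146 and 123 CPM (0.30 ± 0.29, adjusted p = 0.592) and *Cdh4* at 9.20, 33.4 and 39.5 (0.21 ± 0.74, adjusted p = 0.913). The other sensory neuron-like wells were not alike among themselves: in libraries 8 and 10, with 3 such wells each, *Cdh12* had 153 and 303 CPM and *Cdh11* 31.1 and 5.67.

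Proprioceptor-like wells with glial transcripts stood apart from the other proprioceptor-like wells mainly in *Cdh11*. At e15.5 *Cdh11* had 208, 204, 115 and 144 CPM in the 4 libraries with at least 5 such wells, all above the proprioceptor-like range, and was higher by 13.4-fold (log2 3.74 ± 0.33, adjusted p = 4.61e-08). With the minimum of wells doubled to 10 the value was 2.50 and the call was lost (adjusted p = 0.0547). At p1 it had 110, 98.7 and 124 CPM in 3 libraries and was higher by 4.06-fold (2.02 ± 0.16, adjusted p = 4.93e-06). *Cdh2* was called higher at e15.5 (0.83 ± 0.24, adjusted p = 0.0492) but not at p1 (-0.06 ± 0.15, adjusted p = 0.969), and its call was lost on leaving out any 1 of libraries 1 to 9 (adjusted p up to 0.253). The remaining 6 tested members were not called at e15.5 and the remaining 7 not at p1. *Cdh6*, not tested in the main fit, had 3.23, 17.0 and 5.89 CPM in p1 wells with glial transcripts of libraries 1, 4 and 6 (6, 11 and 10 UMIs). Other proprioceptor-like wells of these libraries had 0.753, 0 and 0 CPM. In library 5, with 4 wells with glial transcripts, it went the other way (0 against 3.09 CPM). Of all tested genes 5.43% were called at e15.5 (5.33% higher and 0.103% lower) and 3.39% at p1 (3.01% higher and 0.375% lower). Of further classical cadherins, *Cdh1* (E-cadherin) rose with the glial genes at both ages, from 0.497 to 33.5 CPM at e15.5 and from 1.75 to 46.4 at p1 as means over libraries (log2 6.55 ± 0.52 and 4.47 ± 0.36, adjusted p = 7.29e-09 and 5.52e-06).

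Between e15.5 and p1, 4 of the 8 tested members were higher at p1 in proprioceptor-like wells and none was lower. Over all 12603 genes tested, 61.9% were called, 30.2% higher and 31.7% lower. The members had a median log2 fold change of 0.45 (p1 minus e15.5), against -0.03 over all tested genes. The 4 of 8 members called are thus no more than the share of all genes called.

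*Cdh13* ran from 220 to 374 CPM at p1 (median 263), against 129 to 264 at e15.5, and the 2 ranges overlapped. Its log2 fold change was 0.87 ± 0.14 (adjusted p = 1.72e-05), and it stayed called under all 25 alternatives. *Cdh2* had 20.01 CPM in library 3, from 2 UMIs, and 116 to 170 in the other 5 p1 libraries. Its log2 fold change was 0.57 ± 0.15 (adjusted p = 0.00222) and 0.64 without library 3. *Cdh4* ran from 31.7 to 77.1 CPM (median 46.8), 1.06 ± 0.32 higher on the log2 scale (adjusted p = 0.00641).

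*Cdh11* rose from 5.41 to 25.1 CPM at e15.5 to 21.5 to 41.9 at p1 (median 30.5; log2 1.51 ± 0.26, adjusted p = 5.19e-05). Since *Cdh11* is high in glia-containing and connective tissue-like wells, the markers of those cells are given beside it. The 7 glial markers summed to 13.2 to 28.8 CPM per library in proprioceptor-like wells at e15.5 and 10.003 to 56.8 at p1, and all 7 had UMIs at both ages. Their median over libraries was higher at p1 (37.7 CPM) than at e15.5 (21.5). The 7 connective tissue markers summed to 16.5 to 239 (median 135) and 10.003 to 107 CPM (median 34.5), with *Lum* at 0 at p1. In p1 wells over the glial limit the 7 glial markers had a pooled 1146 CPM beside 111 of *Cdh11*, and in p1 proprioceptor-like wells 40.7 beside 30.7. *Apoe* alone had 344 and 5.86 CPM. The glial limit used *Apoe* and other genes of this list, so these gaps between the 2 classes follow from the limit. With the wells over the glial limit kept at both ages, the log2 fold change of *Cdh11* was 0.64 (adjusted p = 0.0134). The part of glial and connective tissue cells in the *Cdh11* difference was not tested.

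The other 4 tested members were not called between ages. *Cdh12* ran from 144 to 600 CPM at p1 (median 269; log2 0.19 ± 0.21, adjusted p = 0.43), with a spread of 179 (SD, n = 6) against 42.8 (n = 10) at e15.5. *Cdh8* ran from 46.2 to 95.6 CPM (0.32 ± 0.18, adjusted p = 0.129), *Cdh7* from 46.4 to 70.0 (0.16 ± 0.24, adjusted p = 0.57) and *Cdh10* from 14.97 to 36.9 (0.12 ± 0.23, adjusted p = 0.687). *Cdh8* passed the threshold without p1 library 2 (0.45, adjusted p = 0.0374). At p1 *Cdh9* had 0 to 1.46 CPM and *Cdh6* 0 to 3.09, from 18 and 32 UMIs in 249 wells.

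The study names *Gabrg1* and *Tox* as markers of proprioceptors of limb and back muscles. To compare the cadherins between such cells, a well with at least 2 UMIs of one of the 2 genes and at least 3 times as many of it as of the other was called *Gabrg1*-higher (39 wells at e15.5, 61 at p1) or *Tox*-higher (97 and 74 wells). The remaining 133 and 114 proprioceptor-like wells were in neither type, and 12 and 17 of the *Gabrg1*-higher and 16 and 24 of the *Tox*-higher wells had under 4 UMIs of the marker. Counts were summed over at least 3 wells and compared within libraries. A sum does not tell more wells with a gene from more UMIs in a well.

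At e15.5 *Cdh10* was higher and *Cdh4* lower in *Gabrg1*-higher wells. In libraries 7, 8, 9 and 10, which held both types, *Cdh10* had 30.9, 47.5, 50.2 and 27.6 CPM in *Gabrg1*-higher and 17.7, 25.1, 29.2 and 18.7 in *Tox*-higher wells, higher in 4 of 4. The log2 fold change was 0.77 ± 0.18 (adjusted p = 0.0274). In *Tox*-higher wells of libraries 1 to 5, which had no *Gabrg1*-higher sum, *Cdh10* stood at 30.5 to 56.2 CPM, so the types overlapped across libraries, and without the library block the value was 0.26 (adjusted p = 0.696). *Cdh4* had 28.1, 14.1, 11.4 and 6.53 CPM in *Gabrg1*-higher and 26.0, 15.5, 64.9 and 43.4 in *Tox*-higher wells, lower in 3 of 4 (-1.61 ± 0.39, adjusted p = 0.0296). The *Cdh4* call was lost without library 9 (adjusted p = 0.313) or 10 (0.215), and that of *Cdh10* without library 8 (0.207), 9 (0.154) or 10 (0.0655). Of 10724 genes 4.42% were called, 2.27% higher and 2.15% lower, and with DESeq2 no member was called at e15.5.

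*Cdh13* had 239, 200, 184 and 21.8 CPM in *Gabrg1*-higher and 310, 284, 289 and 234 in *Tox*-higher wells of the same libraries, lower in 4 of 4, with a log2 fold change of -1.04 ± 0.32 that did not pass (adjusted p = 0.0968). It passed without library 7 (-1.19, adjusted p = 0.0355) and with at least 4 UMIs of the marker required (-1.03, adjusted p = 0.00826). *Cdh12* was higher in 4 of 4 (0.34 ± 0.12, adjusted p = 0.165) and *Cdh11* in 4 of 4 (1.20 ± 0.43, adjusted p = 0.178). *Cdh7* had 36.6, 15.8, 14.1 and 92.1 CPM against 64.9, 39.8, 51.8 and 85.9 (-0.75 ± 0.27, adjusted p = 0.189), and passed without library 10 (-1.40, adjusted p = 0.00974). *Cdh2* (-0.17 ± 0.18, adjusted p = 0.754) and *Cdh8* (0.05 ± 0.28, adjusted p = 0.962) were not called.

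At p1 only *Cdh12* was called between the types. It had 294, 508 and 389 CPM in *Gabrg1*-higher wells of libraries 1, 2 and 5, and 208, 174 and 197 in *Tox*-higher wells of the same libraries, with 124 and 136 in libraries 4 and 6. These sums of at least 3 wells did not overlap, although sums of 2 wells, which were not tested, stood at 129 CPM (*Gabrg1*-higher, library 4) and 331 CPM (*Tox*-higher, library 3). The log2 fold change was 1.04 ± 0.19 (adjusted p = 0.0087), where 1.45% of 10268 genes were called, 0.906% higher and 0.545% lower. The call was lost without library 2, which held 43 of the 61 *Gabrg1*-higher wells (0.81, adjusted p = 0.193), and when wells with glial transcripts were kept (0.99, adjusted p = 0.251). *Cdh4* had 8.92, 33.5 and 25.7 CPM against 47.8, 40.4 and 54.1 (-1.02 ± 0.30, adjusted p = 0.116). *Cdh8* had 104, 41.0 and 20.9 against 97.0, 78.7 and 95.7 (-0.83 ± 0.30, adjusted p = 0.222), and passed without library 1 (-1.46, adjusted p = 3e-06). *Cdh13* (-0.58 ± 0.30, adjusted p = 0.445), *Cdh2* (0.35 ± 0.18, adjusted p = 0.435), *Cdh10* (-0.40 ± 0.28, adjusted p = 0.599), *Cdh7* (-0.36 ± 0.25, adjusted p = 0.599) and *Cdh11* (-0.17 ± 0.30, adjusted p = 0.868) did not pass either.

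The difference of the 2 ages in these fold changes was tested as an interaction. In it edgeR and DESeq2 each called 0 of 8 members, and edgeR called 0.287% of 11833 genes, 0.135% higher and 0.152% lower. In edgeR's test 3 of the 8 members had an unadjusted p under 0.05, as did 1360 of the 11833 genes. The 3 were *Cdh10* (-1.18 ± 0.32 at p1 relative to e15.5, adjusted p = 0.144), *Cdh12* (0.70 ± 0.23, adjusted p = 0.242) and *Cdh11* (-1.36 ± 0.57, adjusted p = 0.364). The call of *Cdh10* at e15.5 and of *Cdh12* at p1 alone is therefore not shown to be a difference between ages.

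**Figure D3:**
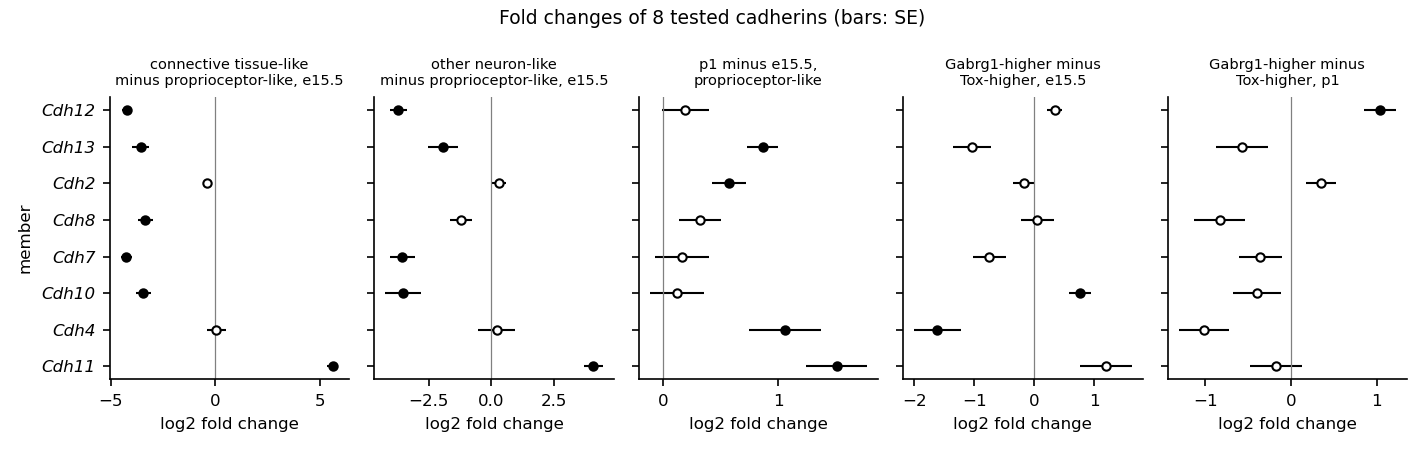
Log2 fold changes of the 8 tested cadherins in 5 comparisons, with bars of 1 SE; filled points passed an adjusted p of 0.05 in edgeR's quasi-likelihood test, and the panels have their own x axes. *Cdh11* lies far right of 0 against both other classes (5.62 and 4.08), the age panel has no called gene left of 0, and each *Gabrg1* against *Tox* panel has at most 2 filled points.

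Single proprioceptor-like wells held several members at once. Each well was thinned to 10000 UMIs drawn without replacement, so that depth did not set the number. A thinned well held 3.36 members on average at e15.5 (2.70 to 3.71 per library) and 4.03 at p1 (3.45 to 4.80), beside 2.26 in other sensory neuron-like and 1.88 in connective tissue-like wells at e15.5. The highest number was 7 at e15.5 (1 well) and 8 at p1 (1 well). These are counts over chosen genes and were not tested. Without thinning the means were 6.28 and 6.70, so the number depends on depth.

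*Cdh12* was found in 91.4% of thinned e15.5 wells (95% exact binomial interval 87.4 to 94.5, counting error only) and 82.7% of p1 wells, and in 13.5% of connective tissue-like wells. *Cdh2* was found in 62.5% and 74.7%, *Cdh13* in 56.5% and 69.9%, *Cdh8* in 40.1% and 51.4%, *Cdh7* in 36.1% and 44.6%, and *Cdh10* in 23.8% and 21.7%. The last 3 were found in 4.42%, 3.69% and 2.21% of connective tissue-like wells, and *Cdh13* in 9.09%. *Cdh4* was found in 15.6% and 31.7% of proprioceptor-like wells and in 21.1% of connective tissue-like wells, so that its e15.5 share was not above theirs. *Cdh11* was found in 8.55% and 25.7%, against 91.6% of connective tissue-like wells. *Cdh9* was found in 3 of 269 thinned wells at e15.5 and 0 of 249 at p1, and *Cdh6* in 1 and 2 wells. The count of 0 allows a share of up to 1.20% of wells with a UMI at the thinned depth only, since without thinning 15 of 249 p1 wells (6.02%) had a UMI of *Cdh9*. Before thinning the median well held 120343 UMIs in proprioceptor-like wells at e15.5, 63644 at p1 and 27466 in connective tissue-like wells.

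In wells thinned to 10000 UMIs no combination took over 7.81% of the wells. The 269 thinned e15.5 wells showed 85 combinations and the 249 p1 wells 106. The most frequent at e15.5 was *Cdh2* with *Cdh12* and *Cdh13* (21 wells, 7.81%, in 8 libraries), then *Cdh2* with *Cdh12* (15 wells) and *Cdh12* with *Cdh13* (14 wells). At p1 it was *Cdh2* with *Cdh8*, *Cdh12* and *Cdh13* (13 wells, 5.22%, in 4 libraries). The most frequent combinations thus held the most abundant genes, but which one led depended on depth. At e15.5 *Cdh12* and *Cdh13* were found together in 139 wells, where the product of their shares gives 139.0. *Cdh2* and *Cdh12* were found together in 154, against 153.6, and *Cdh4* and *Cdh13* in 35, against 23.7. These differences were not tested. Thinned to 20000 UMIs, *Cdh2* with *Cdh7* and *Cdh12* led at e15.5 (18 wells, 6.98%). Without thinning the leader was the combination of all members but *Cdh6* and *Cdh9*, in 38 of 269 wells (14.1%) at e15.5 and 66 of 249 (26.5%) at p1.

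**Figure D4:**
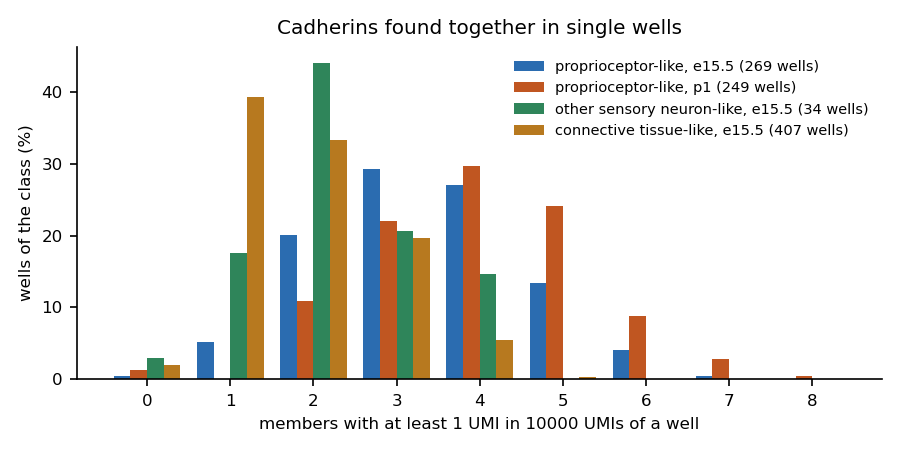
Share of wells (percent of a class) by the number of cadherins with at least 1 UMI after thinning each well to 10000 UMIs, for proprioceptor-like wells at both ages and 2 other classes at e15.5. The most frequent number is 3 for e15.5 proprioceptor-like wells (29.4%), 4 at p1 (29.7%), 2 for other sensory neuron-like wells (44.1%) and 1 for connective tissue-like wells (39.3%).

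Some members rose and fell together over the wells of a library. Pearson's r of log2(CPM/100 + 1) was computed within each library with at least 10 proprioceptor-like wells (8 at e15.5, 5 at p1) for members and 6 further genes that the study uses as markers, 56 pairs at e15.5 and 68 at p1 with both genes in at least 10% of thinned wells. The wells of a library share its preparation and differ in depth, and no p is given. The pairs named here were chosen after their values were seen, as those with a median r of at least 0.25 in size and 1 sign in every library of an age.

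*Cdh13* followed *Tox* most closely, with a median r of 0.53 at both ages (0.13 to 0.70 at e15.5, 0.13 to 0.72 at p1, positive in 8 of 8 and 5 of 5 libraries). *Cdh12* ran against *Tox*, with -0.33 at e15.5 (negative in 7 of 8) and -0.32 at p1 (5 of 5). *Cdh4* followed *Tox* with 0.36 (7 of 8) and 0.25 (5 of 5), and *Cdh13* with 0.30 (7 of 8) and 0.30 (5 of 5). At p1 these fell to 0.0603 for *Tox* in thinned wells, and for *Cdh13* to a Spearman's rho of 0.0474 and 0.12 in thinned wells. These pairs with *Tox* use the same wells as the *Gabrg1* and *Tox* comparison and do not add to it.

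*Cdh8* and *Cdh10*, whose promoters are printed above, had a median r of 0.42 at e15.5 (0.12 to 0.73, positive in 8 of 8 libraries) and 0.14 at p1 (-0.25 to 0.23, 4 of 5). In thinned e15.5 wells *Cdh8* was found in 54.7% of the 64 wells with *Cdh10* and in 40.1% of all. At p1 the shares went the other way, with 48.1% of the 54 wells with *Cdh10* and 51.4% of all. *Cdh8* also followed *Cdh13* (0.30 at e15.5, 8 of 8) and the ephrin receptor gene *Epha3* (0.34, 8 of 8). *Cdh7* ran against *Cdh13* at p1, with -0.31 (negative in 5 of 5). At e15.5 the pair had -0.18 (negative in 7 of 8), but a median Spearman's rho of -0.0186 and 0.00443 in thinned wells. *Cdh11* and *Epha3* had 0.26 at p1 (5 of 5) and 0.03 at e15.5. In thinned wells *Cdh13* and *Tox* had 0.34 and 0.33, and *Cdh8* and *Cdh10* 0.20 (-0.26 to 0.97 over libraries) and 0.04. *Cdh11* and *Epha3* turned sign there, to -0.0871 at e15.5 and -0.00733 at p1.

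**Figure D5:**
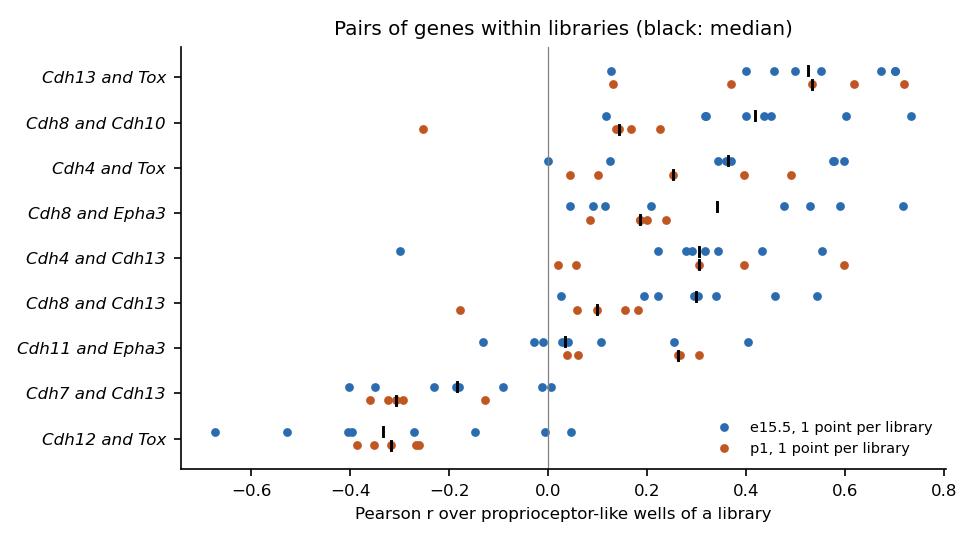
Pearson's r between 2 genes over the proprioceptor-like wells of a library, with 1 point per library (blue e15.5, orange p1) and a black tick at the median. *Cdh13* and *Tox* lie right of 0 in all libraries, *Cdh8* and *Cdh10* do so in all 8 at e15.5, and *Cdh12* and *Tox* lie left of 0 in all 5 at p1.

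Of 9561 genes found in at least 10% of thinned e15.5 proprioceptor-like wells, those most like each member by median within-library r (8 libraries, 256 wells) were named for 7 members. For *Cdh8* they were *Ikzf2* (0.68, 0.47 to 0.74 over libraries), *Lox* (0.62) and *Gpr139* (0.61), and for *Cdh13* *Thsd7b* (0.67, -0.22 to 0.74), *Tox* (0.53) and *Onecut2* (0.48). For *Cdh7* they were *Itga2* (0.58, 0.20 to 0.71), *Grm4* (0.57) and *B3glct* (0.56), and for *Cdh4* *Pou2f2* (0.62, 0.39 to 0.78), *Serpinb8* (0.55) and *Zfhx2* (0.48). For *Cdh10* they were *Adamts1* (0.51, 0.25 to 0.67), *Hs3st4* (0.50) and *Edil3* (0.49), for *Cdh12* *Atp6ap2* (0.52, -0.10 to 0.68), *Fat3* (0.49) and *Slitrk5* (0.44), and for *Cdh2* *Tgfbr1* (0.51, -0.17 to 0.72), *Ncan* (0.51) and *Clcn3* (0.48). The first-named genes of *Cdh8*, *Cdh7*, *Cdh4* and *Cdh10* were positive in every library, while those of *Cdh13*, *Cdh12* and *Cdh2* were negative in at least 1. Of the later-named genes, *Onecut2* (lowest r -0.54), *Zfhx2* (-0.32), *Clcn3* (-0.16), *Hs3st4* (-0.14), *Ncan* (-0.06) and *Slitrk5* (-0.03) were also negative in at least 1. All were picked as the highest of 9561 genes, a choice that raises their r. No gene was among the 3 of more than 1 member.

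The catenins, which couple cadherins to actin, were counted beside the members. Between ages 61.9% of 12603 tested genes were called in proprioceptor-like wells. Of 9 catenin genes 8 were tested there, and 2 were higher and 6 lower at p1. *Arvcf*, a p120 family catenin, fell by 1.68 on the log2 scale (SE 0.14) and *Pkp4*, of the same family, rose by 1.37 (SE 0.13), both chosen for mention after their values were seen. Between connective tissue-like and proprioceptor-like wells, where 79.4% of all tested genes were called, all 8 catenins were called, 3 higher and 5 lower. Among these *Ctnna2*, the neuronal alpha catenin, had 306 CPM in proprioceptor-like and 19.7 in connective tissue-like wells (means over libraries), and *Ctnna1*, the broadly expressed one, 14.1 and 139, both again chosen after their values were seen. Against other sensory neuron-like wells, where 12.8% of tested genes were called, 2 of 8 catenins were called. *Ctnna1* was higher (log2 1.38 ± 0.23) and *Pkp4* lower (-3.32 ± 0.29) in those wells. No catenin was called between *Gabrg1*-higher and *Tox*-higher wells by edgeR or DESeq2 at either age. Of all tested genes edgeR called 4.42% at e15.5 and 1.45% at p1. An unadjusted p under 0.05 in edgeR's test was found for 2 of 8 catenins at e15.5 and 3 of 7 at p1. The same held for 1621 of 10724 genes at e15.5 and 1306 of 10268 at p1.

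Of 10 further classical cadherins, 4 were tested between ages, where 61.9% of tested genes were called. Of the 4, 2 were higher and 2 lower at p1. *Cdh3* (P-cadherin) went from a mean of 7.45 to 0.249 CPM (log2 -4.34 ± 0.48), *Cdh20* from 1.42 to 15.98 (3.33 ± 0.38) and *Cdh22* from 16.5 to 1.98 (-2.13 ± 0.47). *Cdh22* was also called between the types at e15.5, higher in *Gabrg1*-higher wells (25.9 against 11.4 CPM, log2 1.78 ± 0.31, adjusted p = 0.00394). Other sensory neuron-like wells had 0 CPM of it in all 3 libraries. Against connective tissue-like wells 6 were tested, 4 higher there and 1 lower, where 79.4% of tested genes were called. *Cdh5* (VE-cadherin of endothelial cells, mean 31.6 against 0.0949 CPM) led, before *Cdh19* (4.32 against 0.0537) and *Cdh1* (9.33 against 0.497). The connective tissue-like class had no glial or endothelial limit. Per library its 7 glial markers summed to a median of 550 CPM (21.5 in proprioceptor-like wells), and its 3 endothelial markers to 0 to 316. The part of glial and endothelial cells in these values was not tested.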

How the data were processed

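Single-cell libraries of DRG cells at e15.5 (10) and p1 (6) were analysed from 2 tables of UMI counts per gene and well, deposited by the authors, who made them from CEL-Seq2 reads with scruff (GRCm38 and mm10 are named in the submitters' processing notes, and no further filter is stated). The 10 cadherins, the marker and gene lists and the limits of the cell classes were chosen with earlier results of these data known. Wells with at least 10000 UMIs were classed by marker levels. Raw counts were summed per library and class (at least 5 wells, or 3 for *Gabrg1*-higher and *Tox*-higher wells) and tested with edgeR's quasi-likelihood test (edgeR 4.0.16, R 4.3.3, TMM, filterByExpr) with Benjamini-Hochberg adjustment over all tested genes and a threshold of 0.05. Library was a block, except between ages. DESeq2 1.42.0, other normalization, filters, limits and minimum wells, and leaving out each library were the alternatives. Shares and combinations used wells thinned to 10000 UMIs, with Python 3.11.15, NumPy 2.4.6, pandas 2.3.3, SciPy 1.17.1 and Matplotlib 3.10.9. The script was tested on simulated counts. Of 49671 gene IDs 49412 had a symbol. All tested members were counted in every comparison, but the glial comparisons and the interaction do not name each of them. Of the catenins and further cadherins, the 3 with the greatest absolute log2 fold change among those called could be named, as were the 3 genes most alike to each member found in at least 10% of thinned wells. Intervals of shares of wells cover counting error only.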

Additional observations from a re-analysis of the deposited data

Results flagged for a closer look

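In 11 of 70 groups of 4 to 10 libraries, 1 library lay farther from the rest than Dixon's limit allows. For normally distributed values chance gives about 1 in 20 groups. Several flagged values rest on few UMIs, so that rate need not hold here. Among proprioceptor-like wells at e15.5, *Cdh4* stood at 67.5 CPM in library 4 (next 35.7) and *Cdh9* at 10.1 CPM in library 6 (next 3.71, from 13 UMIs). At p1, *Cdh10* was lowest in library 2 at 14.97 CPM (next 30.0), the library with most *Gabrg1*-higher wells, and *Cdh2* was lowest in library 3 at 20.01 CPM (next 116), from 2 UMIs in 5 wells.

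Between the types at e15.5, *Cdh11* reached 26.4 CPM in *Tox*-higher wells of library 2 (next 12.4) and *Cdh9* 14.1 CPM in *Gabrg1*-higher wells of library 7 (next 2.64, from 5 UMIs). In wells with glial transcripts at e15.5, *Cdh9* was at 0 CPM in library 3, with 1.02 in the nearest of the other libraries. In connective tissue-like wells, *Cdh13* stood at 126 CPM in library 10 (next 24.4, 15 UMIs in 5 wells), *Cdh6* at 8.37 CPM in library 10 (next 1.69, 1 UMI), *Cdh8* at 23.7 CPM in library 5 (next 6.23, 14 UMIs) and *Cdh9* at 1.13 CPM in library 7 (next 0.396, 2 UMIs). No cause of these values was tested.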

How the results depend on the processing

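Over 21 called member results and their 399 alternatives, 363 stayed called in the same direction, 36 lost the call and 0 changed direction. The cause of each change was not tested. Counts below are of members called and, after them, of all genes called, against 6 and 10829 (connective tissue-like), 5 and 1748 (other sensory neuron-like), 2 and 741 (glial transcripts, e15.5), 1 and 415 (glial transcripts, p1), 4 and 7804 (age), 2 and 474 (types, e15.5), 1 and 149 (types, p1) and 0 and 34 (interaction).

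With the minimum of wells doubled, 3 members and 527 genes were called against other sensory neuron-like wells, and 0 and 144 with glial transcripts at e15.5, with 695 genes at p1 and 113 in the interaction. Without the filter on low counts, the glial comparison gave 5 and 1391 at e15.5 and 2 and 796 at p1, the types 5 and 865 at e15.5 and 3 and 370 at p1, and the interaction 1 and 260. With gates halved, the glial comparison at e15.5 gave 1 and 413, the p1 types 273 genes and the interaction 88. With gates doubled they gave 1 and 415, 2 members, and 11 genes, and the e15.5 types 1 and 224. A floor of 20000 UMIs left 1 member in the glial comparison at e15.5. DESeq2 called 261 genes in the p1 glial comparison, 0 members and 223 genes between the e15.5 types, and 47 genes at p1. Requiring 4 UMIs of the type marker gave 4 and 716 at e15.5 and 70 genes at p1. With glial wells kept, the p1 types gave 0 and 3, and the interaction 4 genes.

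Replicate numbers of the 2 ages share only a number (correlations of same-numbered libraries -0.18 to 0.07). With the replicate block 2 members were called between ages, without *Cdh2* (adjusted p = 0.0676) and *Cdh4* (0.0547), and *Cdh10* was at -0.18. Without the library as a replicate block, 1 member was called with glial transcripts at e15.5, 96 genes between the p1 types and 21 in the interaction.

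Leaving out 1 library gave 1039 to 1783 genes against other sensory neuron-like wells, 1 to 2 members with glial transcripts at e15.5, 1 to 2 and 405 to 678 genes at p1, 0 to 3 and 198 to 593 between the e15.5 types, 0 to 2 and 44 to 784 between the p1 types, and 11 to 96 genes in the interaction. The members per well were 6.28 (e15.5) and 6.70 (p1) without thinning, 5.30 and 5.51 with 2 UMIs required, and 4.42 and 5.17 when thinned to 20000 UMIs.

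Median correlations in thinned wells were 0.00443 (*Cdh7* and *Cdh13*, e15.5, reversed), 0.196 (*Cdh8* and *Cdh10*, e15.5), -0.0871 and -0.00733 (*Cdh11* and *Epha3*, e15.5 and p1, both reversed), and at p1 0.0603 (*Cdh4* and *Tox*), -0.19 (*Cdh7* and *Cdh13*), 0.0375 (*Cdh8* and *Epha3*) and -0.12 (*Cdh12* and *Tox*). Spearman's rho was -0.0186 for *Cdh7* and *Cdh13* at e15.5 and 0.0474 for *Cdh4* and *Cdh13* at p1.

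Among member results that did not pass the threshold, some changed sign, none past it.
Against connective tissue-like wells, *Cdh4* was at -0.130 (DESeq2), -0.0837 (no filter), -0.00399 (gates doubled), -0.308 (20000 UMIs) and -0.479 to 0.428 leaving out 1 library. Against other sensory neuron-like wells, *Cdh4* was at -0.00722 (no replicate block), -1.39 (minimum of wells doubled), -0.235 (gates halved), -0.0105 (gates doubled) and -0.225 to 0.840 leaving out 1 library. With glial transcripts at e15.5, *Cdh10* was at 0.350 (gates halved), 0.431 (gates doubled) and -0.669 to 0.173 leaving out 1 library, *Cdh13* was at 0.0869 (minimum of wells doubled), *Cdh7* was at 0.0400 (minimum of wells doubled) and *Cdh8* was at 0.410 (minimum of wells doubled). With glial transcripts at p1, *Cdh13* was at -0.0519 (minimum of wells doubled), -0.267 (gates halved) and -0.0595 to 0.437 leaving out 1 library, *Cdh2* was at 0.0478 (no replicate block), 0.0485 (minimum of wells doubled), 0.0206 (gates halved) and -0.186 to 0.0409 leaving out 1 library, *Cdh4* was at 0.0844 (no replicate block) and *Cdh8* was at 0.182 (no replicate block), 0.00223 (DESeq2 size factors), 0.0149 (minimum of wells doubled), 0.0958 (gates halved), 0.00486 (20000 UMIs) and -0.0537 to 0.00725 leaving out 1 library. Between ages, *Cdh12* was at -0.0478 to 0.348 leaving out 1 library and *Cdh7* was at -0.0148 (gates doubled). Between the types at e15.5, *Cdh11* was at -0.203 (gates doubled), -0.0493 (glial wells kept), *Cdh2* was at 0.0497 (minimum of wells doubled), 0.0498 (gates halved), 0.0251 (4 UMIs) and -0.279 to 0.0465 leaving out 1 library and *Cdh8* was at -0.0493 (minimum of wells doubled), -0.0475 (gates halved), -0.0625 (gates doubled) and -0.219 to 0.532 leaving out 1 library. Between the types at p1, *Cdh11* was at 0.110 (no replicate block), 0.375 (4 UMIs), 0.0557 (glial wells kept) and -0.523 to 0.188 leaving out 1 library, *Cdh13* was at -1.09 to 0.0558 leaving out 1 library and *Cdh7* was at -0.626 to 0.0337 leaving out 1 library. In the interaction, *Cdh11* was at 0.175 (gates doubled), 0.00603 (glial wells kept), *Cdh13* was at -0.0352 to 1.12 leaving out 1 library and *Cdh7* was at -0.167 (no replicate block), -0.351 (minimum of wells doubled).
The p1 glial comparison with gates doubled and the p1 types with the minimum of wells doubled could not be fitted. The low counts of *Cdh6* and *Cdh9* left them untested in the main fit of all 8 comparisons, while some alternatives tested 9 or 10 members. In the p1 glial comparison 2 members were called of 10 without the filter and of 9 without library 1. The member called there beside *Cdh11* was *Cdh6* or *Cdh9*.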

Other observations

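Wells that no class took (116 at e15.5 and 68 at p1) were in no comparison. Their levels by library, over libraries with at least 5 such wells, ran at e15.5 from 72.0 to 544 CPM for *Cdh2* (median 195, 9 libraries), from 108 to 1061 for *Cdh11* (median 184), from 6.04 to 273 for *Cdh12* (median 91.6) and from 14.6 to 275 for *Cdh13* (median 53.0). At p1 (5 libraries) *Cdh12* ran from 41.5 to 302 CPM (median 207), *Cdh13* from 86.7 to 232 (median 171) and *Cdh11* from 50.3 to 88.2 (median 53.1). *Cdh6*, near 0 in proprioceptor-like wells, had 3.68 to 31.1 CPM in these p1 wells (median 6.71), from only 1 to 7 UMIs per library.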
